A study of Mus musculus with 6 samples.

Results

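MHC presentation and interferon response genes were followed in aortic roots of klotho-deficient and wild-type mice. The 33 genes were taken from a fixed list of MHC class II, MHC class I and interferon genes, and each was represented by its brightest probe set that the platform annotation gives to exactly 1 gene. By this rule 31 of the 33 were measured, out of 18193 genes on the array: 6 of class II, 8 of class I and 17 of the interferon response. H2-DMb1 and Isg15 had only probe sets annotated with more than 1 gene (2 and 1) and have no value.

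The klotho-deficient mice were homozygous for a mutant klotho allele and the wild-type mice homozygous for the normal one, both on the C57BL/6J albino strain and aged 6 to 6.5 weeks. Each dissected root held valve leaflets, annulus and a piece of ascending aorta. A pool of 3 mice gave the RNA of 1 array, and each genotype had 3 such pools (9 mice), so the pools are the replicates and their number limits the precision. The comparison asks which transcripts differ when klotho, the co-receptor for the hormone FGF23, is missing. In tissue of mixed cells, fewer cells of a type and less RNA per cell cannot be told apart.

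MHC class I molecules show peptides from inside the cell on nearly all nucleated cells. The peptides are cut by the proteasome, pumped into the endoplasmic reticulum by the Tap transporter and loaded with the help of tapasin. MHC class II molecules show peptides from swallowed proteins, mainly on macrophages, dendritic cells and B cells. Interferons are cytokines of antiviral defence whose receptors signal through Janus kinases to STAT proteins, and their target genes include antiviral effectors as well as class I and, for interferon gamma, class II genes.

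Many interferon targets carry the interferon-stimulated response element (ISRE) near their start, and class II genes carry a Y box bound by the factor NF-Y. The 250 bases before the RefSeq transcript start (GRCm38.p6) are printed for 7 genes, read 5′ to 3′ along the gene. All 7 hold a match to 1 of these elements. Genes without a match, such as Ifit2 and Ifih1, are not printed. Capitals in the first 5 mark the ISRE core GAAANNGAAA on either strand, and capitals in the last 2 mark the Y box core CTGATTGG.
Ifit1, chr19:34640639-34640888, plus strand: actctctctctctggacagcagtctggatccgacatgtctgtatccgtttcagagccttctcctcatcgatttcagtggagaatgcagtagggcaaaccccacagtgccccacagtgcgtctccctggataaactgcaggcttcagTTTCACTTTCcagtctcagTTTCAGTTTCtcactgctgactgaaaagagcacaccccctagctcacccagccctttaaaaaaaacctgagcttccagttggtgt
Ifit3, chr19:34583279-34583528, plus strand: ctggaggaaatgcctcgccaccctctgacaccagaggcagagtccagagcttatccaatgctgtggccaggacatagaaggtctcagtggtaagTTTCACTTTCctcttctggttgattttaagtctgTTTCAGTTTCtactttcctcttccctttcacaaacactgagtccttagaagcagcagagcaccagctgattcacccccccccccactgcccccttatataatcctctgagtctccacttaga
Rsad2, chr12:26456453-26456702, minus strand: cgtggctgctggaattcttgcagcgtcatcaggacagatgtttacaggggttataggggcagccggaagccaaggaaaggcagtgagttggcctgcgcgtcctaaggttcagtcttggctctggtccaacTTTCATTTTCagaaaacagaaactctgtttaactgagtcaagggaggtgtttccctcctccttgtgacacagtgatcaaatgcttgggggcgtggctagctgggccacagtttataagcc
Gbp2, chr3:142620413-142620662, plus strand: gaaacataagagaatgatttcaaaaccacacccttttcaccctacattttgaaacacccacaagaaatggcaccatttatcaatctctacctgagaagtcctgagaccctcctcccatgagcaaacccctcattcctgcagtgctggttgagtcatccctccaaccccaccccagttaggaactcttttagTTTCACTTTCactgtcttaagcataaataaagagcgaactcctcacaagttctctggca
B2m, chr2:122147437-122147686, plus strand: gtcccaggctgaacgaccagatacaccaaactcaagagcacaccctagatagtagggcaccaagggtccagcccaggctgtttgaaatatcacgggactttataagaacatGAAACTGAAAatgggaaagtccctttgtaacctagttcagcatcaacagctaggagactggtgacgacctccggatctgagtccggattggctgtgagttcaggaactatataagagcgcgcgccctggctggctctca
H2-Aa, chr17:34287824-34288073, minus strand: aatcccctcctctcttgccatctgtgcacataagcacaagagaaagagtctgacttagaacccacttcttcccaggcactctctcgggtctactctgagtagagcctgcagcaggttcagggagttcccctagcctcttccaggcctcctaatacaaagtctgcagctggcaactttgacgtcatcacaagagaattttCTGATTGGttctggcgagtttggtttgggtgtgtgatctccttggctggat
H2-Eb1, chr17:34305617-34305866, plus strand: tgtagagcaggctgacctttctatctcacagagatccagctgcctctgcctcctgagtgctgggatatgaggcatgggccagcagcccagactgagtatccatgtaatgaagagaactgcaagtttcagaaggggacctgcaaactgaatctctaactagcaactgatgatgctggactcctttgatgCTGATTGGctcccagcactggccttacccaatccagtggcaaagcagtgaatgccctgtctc

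Of the 33 listed genes, 28 had a promoter in the RefSeq table, H2-DMb1 and Isg15 among them. The ISRE core was found in 9 of 17 interferon genes (52.9%), 1 of 7 class I genes (14.3%, B2m) and 0 of 4 class II genes, against 3.46% of 27025 genes. The Y box core was found in 2 of 4 class II genes (50.0%), 3 of 7 class I genes (42.9%) and 0 of 17 interferon genes, against 4.43% of all genes. Among the class I genes, the windows of Tap1 and Psmb9 overlap on opposite strands and hold the same match, so this site counts for both. Both strands were searched, overlapping matches were kept, and a match describes the letters of the window and nothing more. In Ifit1 the cores began at positions -104 and -85 relative to the start, in Ifit3 at -156 and -122, in Rsad2 at -120, in Gbp2 at -59 and in B2m at -139.

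The arrays were comparable in depth of signal, with medians of 425.6 to 556.6 after the submitters' scaling. Background was set at 161.8, the top signal among 27 probe sets for Bacillus transcripts, which mice lack. Wild-type replicate 3 stood apart in its Gapdh control, with a 3′ to 5′ ratio of 7.18 against 3.23 to 4.08 on the other 5 arrays. It did not stand apart in its Actb control. The Actb 3′ to 5′ ratio was 1.1 there, as on klotho-deficient replicates 1 and 2 and wild-type replicate 2. This ratio was lower on wild-type replicate 1 and higher on klotho-deficient replicate 3. Of 3 measured Y-linked genes, 0 exceeded background on klotho-deficient replicates 2 and 3, while all 3 did so on each of the other 4 arrays. Xist, expressed from the inactive X of females, was bright on every array, from 19873.8 to 36290.2. The arrays without Y-linked signal were thus all klotho-deficient, so the sex of the pooled mice and the genotype cannot be fully told apart. Muscle and fibroblast markers of the root were bright on every array, as with Acta2 at 44421.8 to 63990.8 and Col3a1 at 37685.1 to 57158.9.

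None of the 31 genes separated the genotypes. The 3 klotho-deficient and 3 wild-type values overlapped in all 31, whereas 13.5% of the 18193 genes did not overlap. In limma over all genes 0 of the 31 had an adjusted p under 0.05 (background 0.0%) and 0 an unadjusted p under 0.05 (background 6.41%). The smallest p was 0.090, for Gbp2 (adjusted p = 0.796). Log2 differences (klotho-deficient minus wild type) ran from -0.47 for Gbp2 to 0.82 for Rsad2 among the 29 genes with a mean above background. Over all 31, 14 were higher and 17 lower, with a median of -0.08, beside 0.00 over all genes. The lack of calls does not show equal levels, since the intervals are wide, as with -1.33 to 2.96 for Rsad2.

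**Figure D1:**
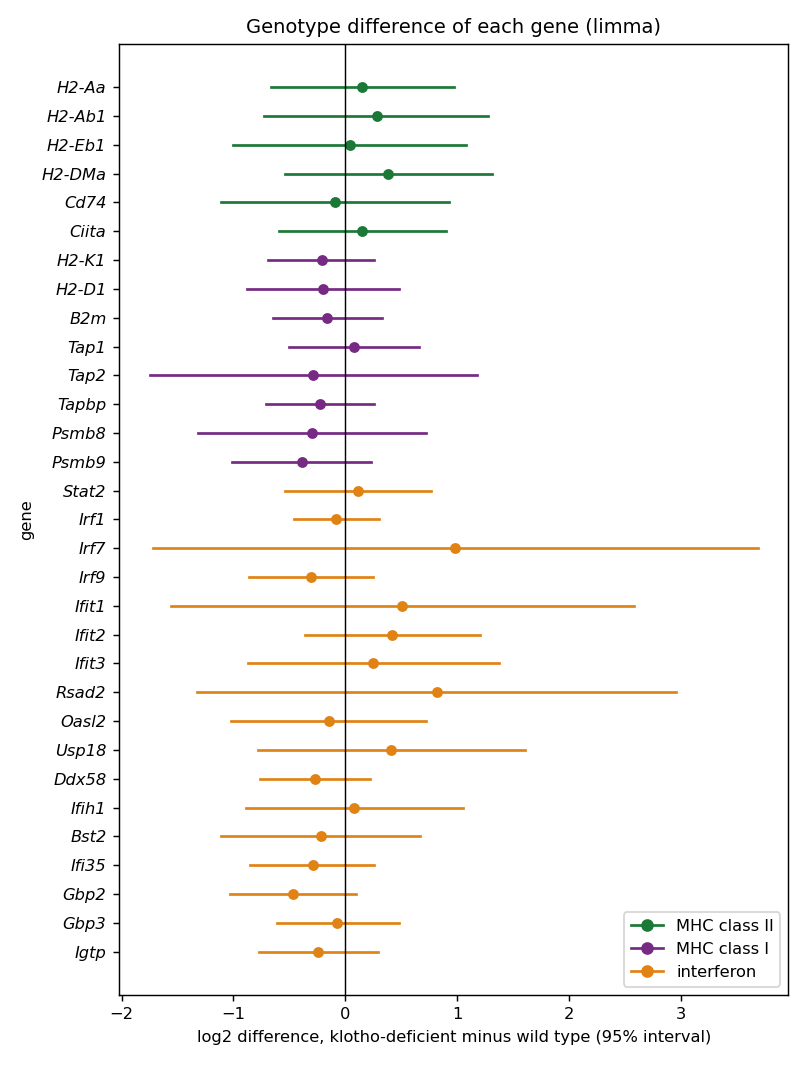
Log2 difference between klotho-deficient and wild-type roots for the 31 genes, with the 95% interval from limma (3 arrays per genotype), coloured by class. Every interval includes 0, and the widest are those of Irf7, which is near background, and of Rsad2 and Ifit1.

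The same genes varied widely between pools of 1 genotype. The standard deviation within genotypes, on the log2 scale, had a median of 0.42 over the 31 genes, beside 0.28 over the 13322 genes with a mean above background. It was 0.55 for class II, 0.29 for class I and 0.42 for interferon genes. Among genes with a mean above background it ran from 0.04 for Irf1, a transcription factor, to 1.27 for Ifit1 and 1.31 for Rsad2. Irf7, at 1.66, was set by wild-type values of 17.5 and 76.2 that lie under background.

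**Figure D2:**
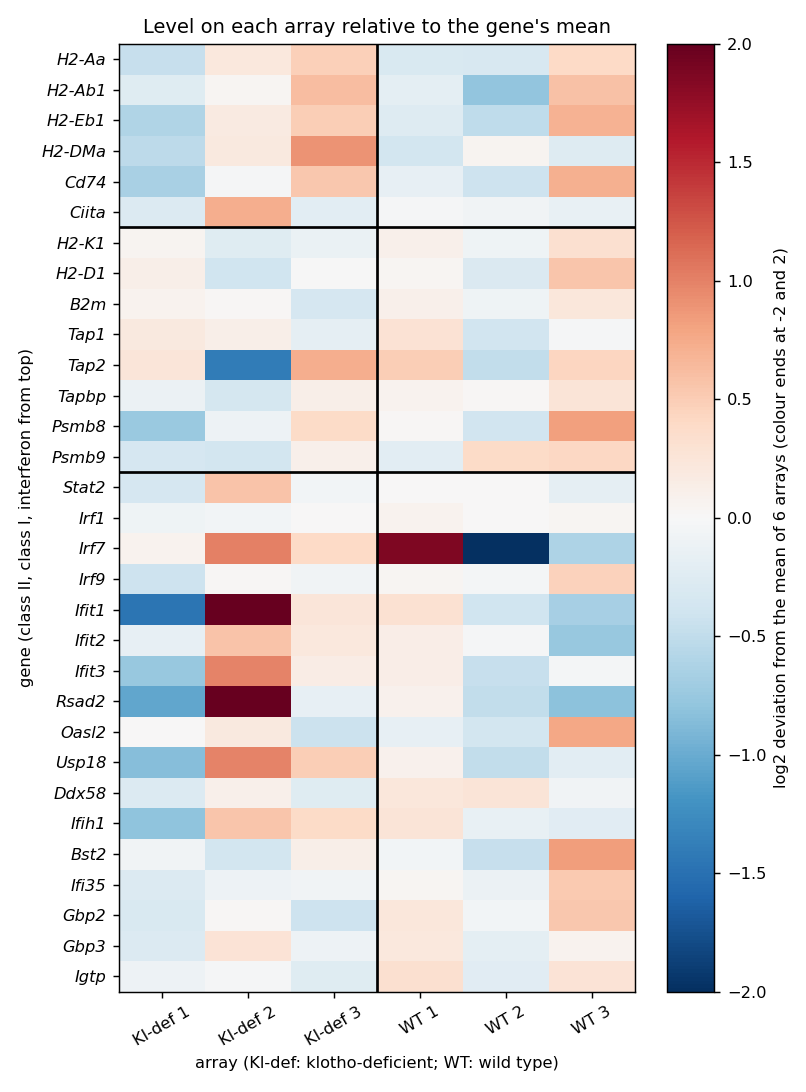
Log2 deviation of each gene (rows) from its mean over the 6 arrays (columns, 3 klotho-deficient then 3 wild type), red above and blue below. Class II genes other than Ciita are red on klotho-deficient replicate 3, those other than Ciita and H2-DMa are red on wild-type replicate 3, and the rows of Ifit1 and Rsad2 are dark red on klotho-deficient replicate 2.

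The class II chains and Cd74 gave strong signals in both genotypes, and H2-DMa and Ciita weak ones. H2-Aa, the alpha chain of the A molecule, measured 6108.3, 9802.7 and 11811.5 on klotho-deficient replicates 1 to 3, and 6852.6, 6757.1 and 11110.4 on the wild-type ones. High values came from klotho-deficient replicates 2 and 3 and wild-type replicate 3, and the genotypes overlapped. Its difference was 0.15 ± 0.34 (SE, 95% interval -0.66 to 0.97, adjusted p = 0.946).

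H2-Ab1, the beta chain that pairs with it, measured 3197.8, 3887.7 and 5848.6 in klotho-deficient roots against 3299.7, 2184.9 and 5686.0 in wild type (0.28 ± 0.41, adjusted p = 0.92). This probe set carries the suffix _s_at, which marks probes shared by related transcripts. The dimmer H2-Ab1 probe sets gave larger differences of 0.61 and 0.48, also with overlap (limma adjusted p = 0.943 and 0.958 over all probe sets). H2-Eb1, the E beta chain, measured 2277.6, 3912.8 and 4861.1 against 2901.9, 2436.9 and 5635.0 (0.04 ± 0.43). Replicate 3 was thus the highest array of each genotype for both chains. The labels do not tie a klotho-deficient pool to a wild-type pool by replicate number. The partner of H2-Eb1 is not made in C57BL/6 mice, which carry a deletion at H2-Ea, and the H2-Ea probe set stayed below background on all 6 arrays, from 20.4 to 148.2.

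Cd74, the invariant chain that escorts new class II molecules, measured 3011.7, 4600.5 and 6822.2 in klotho-deficient roots, against 4193.9, 3523.8 and 7713.5 in wild type. It followed the same arrays as the chains it escorts, with a difference of -0.09 ± 0.42 (adjusted p = 0.982). The sign of this difference turned to 0.24 without wild-type replicate 3 and to 0.21 without klotho-deficient replicate 1.

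H2-DMa, a subunit of the DM molecule that exchanges peptides on class II, was dimmer, at 213.8, 351.8 and 571.7 in klotho-deficient roots and 237.3, 318.6 and 256.3 in wild type (0.38 ± 0.38, adjusted p = 0.88). Unlike the chains, it was not raised on wild-type replicate 3. Ciita, the transactivator of class II genes, was near background: 112.2, 224.8 and 117.1 in klotho-deficient roots and 134.1, 129.9 and 122.9 in wild type. As it exceeded background on 1 klotho-deficient array and on 0 wild-type arrays, no fold is given.

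As a list, the 6 class II genes were 5 higher and 1 lower, with a median difference of 0.15, while 9168 of all 18193 genes were higher. Ciita, near background, counts among the 5. The median over class II genes with a mean above background was also 0.15. The mean log2 deviation of the 6 genes was -0.46, 0.22 and 0.47 on klotho-deficient replicates 1 to 3, against -0.22, -0.34 and 0.33 on the wild-type ones. Klotho-deficient replicate 1 was the lowest of all arrays in 5 of the 6, where it was lowest in 18.0% of genes above background. Wild-type replicate 3 exceeded the mean of the other wild-type arrays by more than 1.5 times in 4 of 6 class II genes, where 8.56% of genes above background did so.

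The median class II difference was -0.36 in the fit with a covariate for the arrays without Y-linked transcripts, klotho-deficient replicates 2 and 3, so that the estimate rests on klotho-deficient replicate 1 against wild type. The interferon median was -0.41 and the class I median -0.03 in that fit, and 0 of the 31 genes passed in it.

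**Figure D3:**
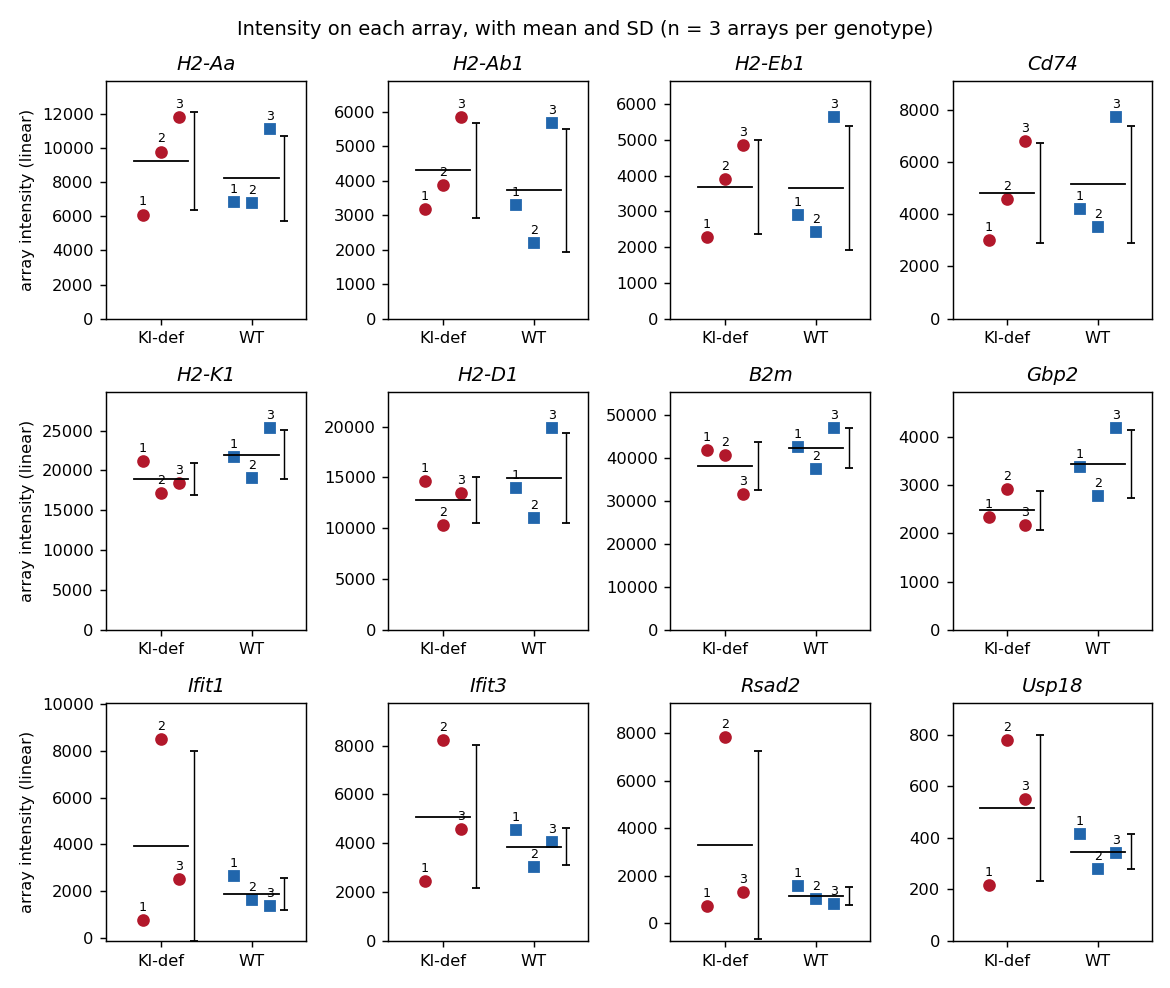
Linear array intensity of 12 genes on each array, klotho-deficient (Kl-def, circles) left of wild type (WT, squares), with replicate numbers, the mean (line) and the SD (bar, n = 3). The 4 class II genes have their highest value on replicate 3 of each genotype, and Ifit1, Ifit3 and Rsad2 have their highest value on klotho-deficient replicate 2.

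Markers of antigen-presenting cells were read on the same arrays. The pan-leukocyte gene Ptprc measured 3322.0, 5586.0 and 5163.0 in klotho-deficient roots and 4086.3, 3700.3 and 2823.2 in wild type, so it was lowest on wild-type replicate 3, where class II chains were high. The 10 macrophage and monocyte markers had summed intensities of 65782.6, 83331.4 and 67730.3 in klotho-deficient roots, against 69847.9, 58773.9 and 86049.6 in wild type, and all 10 had a mean above background. The sums give most weight to the brightest markers and were highest on wild-type replicate 3. With equal weight, the mean log2 deviation was highest on klotho-deficient replicate 2, at -0.20, 0.25 and 0.08 against -0.06, -0.19 and 0.13. Among 7 dendritic cell markers, Flt3 was 9.9 to 26.3 in klotho-deficient roots and 7.9 to 21.7 in wild type, below background throughout, and Itgax measured 215.7, 374.3 and 643.4 against 269.9, 154.9 and 372.1. Zbtb46, the marker of this list with the strongest signal and also made by endothelium, was 2593.2, 2738.3 and 3077.1 against 4548.0, 3860.9 and 3457.8, lower without overlap (-0.49 ± 0.19, adjusted p = 0.763). Cd209a exceeded background on wild-type replicate 3 alone. Across the 7 dendritic cell markers 4 differences were positive and 3 negative, and 2 of the 7 had a mean above background.

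None of the 4 measured B cell markers had a mean above background. Their summed intensities were 239.2, 367.8 and 223.1 in klotho-deficient roots and 250.4, 210.5 and 679.6 in wild type, the highest being wild-type replicate 3, where Ms4a1 reached 237.5 and Cd79a 243.2. Of 5 T cell markers 1 had a mean above background. The part of cell composition in the class II values was not tested.

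The class I chains and tapasin gave strong signals in both genotypes, and the Tap transporter genes weak ones. H2-K1, a classical heavy chain, measured 21115.0, 17148.8 and 18441.3 in klotho-deficient roots and 21677.0, 19033.7 and 25266.5 in wild type (-0.21 ± 0.19, 95% interval -0.69 to 0.26, adjusted p = 0.869). H2-D1, the other classical heavy chain measured, was at 14639.1, 10300.9 and 13452.2 in klotho-deficient roots and 13986.8, 11051.1 and 19833.9 in wild type (-0.20 ± 0.28). For both chains klotho-deficient replicate 2 was the lowest array and wild-type replicate 3 the highest. Mouse class I genes are close paralogs and the probe sets used for both, like that of H2-Aa, carry the suffix _x_at, which marks probes shared between genes, so their signal cannot be assigned to 1 gene with certainty.

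B2m, the light chain of every class I molecule, measured 41676.9, 40604.5 and 31529.4 in klotho-deficient roots, against 42526.6, 37339.1 and 46776.0 in wild type. Its difference of -0.16 ± 0.20 had an interval of -0.65 to 0.33 (adjusted p = 0.903). Its second probe set gave -0.19.

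The peptide supply genes also overlapped between genotypes. Psmb8 and Psmb9, catalytic subunits of the immunoproteasome, averaged 1492 ± 562 and 1750 ± 328 in klotho-deficient roots, and 1861 ± 817 and 2314 ± 520 in wild type (SD, n = 3). Psmb8 reached 2778.1 on wild-type replicate 3, which was 1.98 times the mean of the other wild-type arrays. Tapbp, which encodes tapasin, averaged 10310 ± 1690 in klotho-deficient roots, against 11990 ± 1050 in wild-type roots (-0.23 ± 0.20). Its dimmer probe set was 320.5, 174.7 and 309.3 against 406.4, 367.3 and 445.9, lower without overlap (-0.65 ± 0.30, adjusted p = 0.926 over all probe sets).

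The transporter genes were dimmer. Tap1 averaged 805.3 ± 104 in klotho-deficient roots, against 770.3 ± 175 in wild-type roots (0.08 ± 0.24), the only class I member with a positive difference. Tap2 was 267.8, 86.2 and 374.5 against 319.9, 160.4 and 305.1, under background on replicate 2 of each genotype, and its difference of -0.29 ± 0.60 turned to 0.34 without klotho-deficient replicate 2.

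As a list, 7 of 8 class I genes were lower and 1 higher, with a median difference of -0.22, and 0 passed in limma. Wild-type replicate 3 was the highest of the 6 arrays in 6 of 8 class I genes (75.0%), beside 25.5% of genes above background. Without that array the median was -0.10, and H2-D1 and Psmb8 turned to 0.03 each. Among 15 other genes for loading and peptide supply, wild-type replicate 3 was again the highest array in 10 (66.7%), as with Psmb10, an immunoproteasome subunit, at 2677.4 there and 1250.5 to 1509.6 elsewhere.

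Endothelial and mesothelial markers were also highest on wild-type replicate 3. This held for 5 of 5 endothelial markers, with summed intensities of 14529.9 to 16365.7 in klotho-deficient roots and of 17314.5, 17200.7 and 27158.4 on wild-type replicates 1 to 3. It held too for 4 of 4 mesothelial and epithelial markers, at 14953.0 to 27119.2 in klotho-deficient roots and 30365.7, 26624.3 and 45100.6 in wild type. Their part in the class I values was not tested. The part of the high Gapdh ratio on the same array, where the Actb ratio was not raised, was not tested either.

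**Figure D4:**
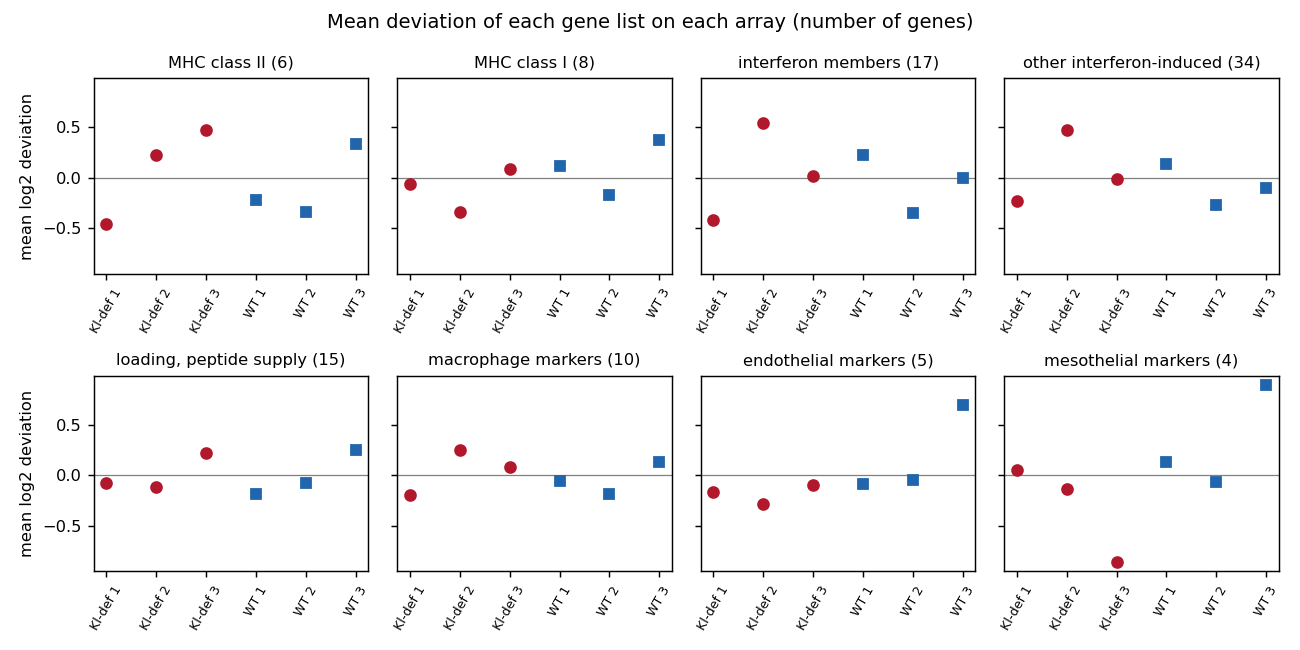
Mean log2 deviation of 8 gene lists on each array (klotho-deficient circles, wild-type squares; the number of genes in brackets). Interferon members and other interferon-induced genes are highest on klotho-deficient replicate 2, and class I, endothelial and mesothelial genes on wild-type replicate 3.

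Antiviral interferon targets were set apart on 1 array. Rsad2, which encodes the antiviral enzyme viperin, measured 713.0, 7835.8 and 1304.5 on klotho-deficient replicates 1 to 3, and 1553.0, 1038.3 and 829.3 in wild type. Replicate 2 was 7.77 times the mean of the other klotho-deficient arrays, while those 2 arrays overlapped with wild type. The difference of 0.82 ± 0.88 (95% interval -1.33 to 2.96, adjusted p = 0.888) became -0.19 without that array. Both dimmer Rsad2 probe sets were also highest on klotho-deficient replicate 2, the brighter of them at 214.4, 1238.1 and 301.4 in klotho-deficient roots against 188.8, 267.5 and 206.4 in wild type. Their fitted differences had opposite signs, 0.98 for the brighter and -0.43 for the dimmest. The dimmest measured 11.9, 737.1 and 216.7 against 236.1, 194.6 and 100.4, with 11.9 and 100.4 under background.

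Ifit1, which encodes an RNA-binding inhibitor of viral translation, measured 782.6, 8495.7 and 2522.5 in klotho-deficient roots, against 2635.6, 1619.8 and 1357.1 in wild type. It was 5.14 times the mean of the other klotho-deficient arrays on replicate 2, and klotho-deficient replicate 1 was the lowest of all 6 arrays. Its difference was 0.51 ± 0.85 with all arrays (95% interval -1.56 to 2.58, adjusted p = 0.93) and -0.35 without klotho-deficient replicate 2.

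Ifit3, a partner of Ifit1, and Usp18, a protease that removes Isg15 and dampens the interferon receptor, are given beyond the genes chosen for per-array values because of their values. Ifit3 measured 2448.0, 8247.2 and 4586.1 in klotho-deficient roots and 4536.0, 3026.2 and 4033.0 in wild type. Usp18 measured 217.6, 782.0 and 552.9 against 416.5, 280.0 and 341.6. Replicate 2 stood 2.34 and 2.03 times above the mean of the other klotho-deficient arrays, and the differences of 0.25 and 0.41 became -0.19 and 0.02 without it.

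Of the 17 interferon members, 8 were highest on klotho-deficient replicate 2 (47.1%), beside 18.9% of genes above background. These were Stat2, Ifit1, Ifit2, Ifit3, Rsad2, Usp18, Ifih1 and Gbp3. In 7 of the 17 that array exceeded the mean of the other klotho-deficient arrays by over 1.5 times, as did 9.96% of genes above background. Klotho-deficient replicate 1 was the lowest array in 11 of the 17, so the klotho-deficient pools held both ends of the range. The ISRE core printed above for Ifit1, Ifit3 and Rsad2 stood in 5 of the 7 of these 8 genes that had a promoter sequence. It stood in 2 of the 5 interferon members highest on wild-type replicate 3, Bst2 and Gbp2. For wild-type replicates 1 and 2 the counts were 1 of 3 and 0 of 1. Over the 17 interferon genes with a promoter, Isg15 included, it stood in 9 (52.9%). Whether the share depends on the highest array was not tested.

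**Figure D5:**
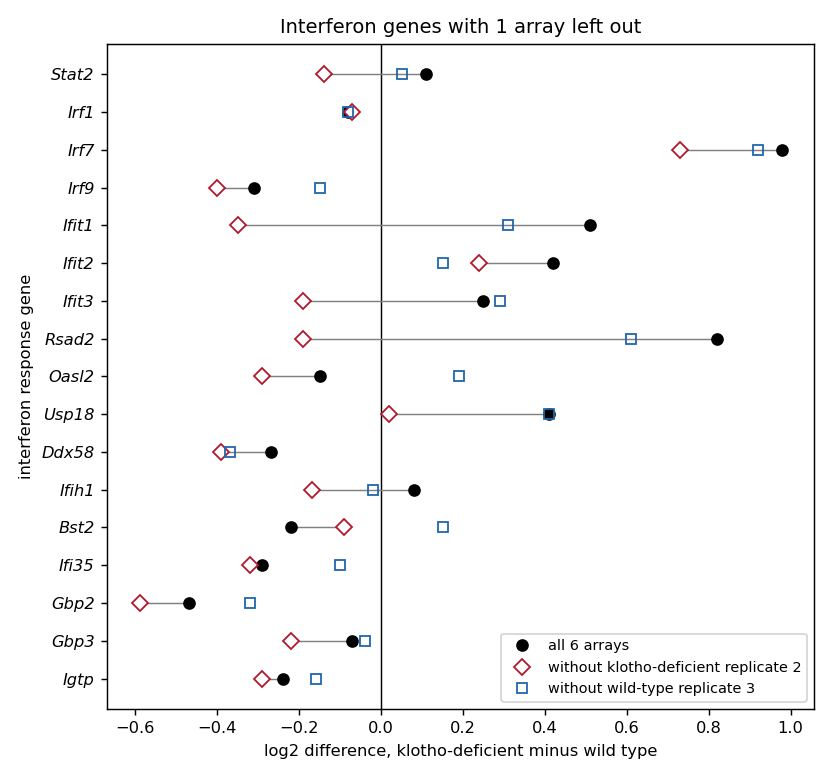
Log2 difference, klotho-deficient minus wild type, of the 17 interferon members with all 6 arrays (filled circles), without klotho-deficient replicate 2 (diamonds) and without wild-type replicate 3 (open squares). Ifit1, Rsad2, Ifit3, Stat2 and Ifih1 cross 0 without klotho-deficient replicate 2, and Oasl2, Bst2 and Ifih1 without wild-type replicate 3.

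The same array was high for interferon-induced genes outside the 33. Of 34 such genes measured, 16 were highest on klotho-deficient replicate 2 (47.1%) and 15 exceeded the mean of the other klotho-deficient arrays by over 1.5 times. Examples were Cxcl10, a T cell chemokine, at 257.2, 1148.2 and 405.7 in klotho-deficient roots against 363.6, 224.5 and 233.2, and Mx1, a GTPase of antiviral defence, at 290.3, 1546.6 and 442.8 against 455.1, 307.6 and 420.7. Both were singled out for these values. The interferon ligands Ifnb1, Ifng and Ifna4 were below background on every array, the highest value being 62.9.

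Markers of other cell types also differed on klotho-deficient replicate 2. Ccr2, a monocyte receptor, was 530.5, 1212.4 and 632.4 in klotho-deficient roots and 588.0, 523.0 and 416.1 in wild type, and Ptprc had its highest value there. Of 10 macrophage and monocyte markers, Ccr2 among them, 2 were highest on that array and 4 on wild-type replicate 3. Of 3 markers of plasmacytoid dendritic cells, which make type I interferon, 1 (Ccr9) was highest there and 2 (Siglech and Tcf4) on klotho-deficient replicate 3. Tcf4 was far brighter, at 7357.4 to 13005.8 against 72.0 to 338.6 for Siglech, so its signal cannot be assigned to these cells with certainty. As a list the 3 markers had mean log2 deviations of -0.34, 0.36 and 0.35 on klotho-deficient replicates 1 to 3, against -0.32, 0.15 and -0.20 in wild type. Of 3 neutrophil markers, 2 (S100a8 and Csf3r) were highest on klotho-deficient replicate 2 and S100a9 on replicate 3. S100a9 measured 592.6, 886.8 and 1100.2 against 26.3, 24.2 and 307.9, and S100a8 349.9, 377.9 and 361.8 against 231.1, 233.6 and 231.7. Both were higher without overlap (limma adjusted p = 0.67 each), and Csf3r was below background on every array. Of 4 cardiomyocyte markers, 3 were highest on klotho-deficient replicate 2, with summed intensities of 60314.4, 82564.8 and 56777.9 in klotho-deficient roots against 51900.6, 71431.3 and 76050.4. Their part in the interferon values was not tested. On klotho-deficient replicate 3, which also lacked Y-linked transcripts, Rsad2 and Ifit1 lay within the wild-type range, while Ifit3, Usp18 and Ifih1 exceeded every wild-type array.

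The sensors and transcription factors of the response overlapped between genotypes too. Ddx58 and Ifih1, sensors of viral RNA, averaged 1065 ± 161 and 1109 ± 473 in klotho-deficient roots and 1280 ± 157 and 981.9 ± 183 in wild type. The Ddx58 probe sets disagreed in sign. The difference was -0.27 for the probe set used, 0.16 for another that averaged 1067 against 951.3, and -0.35 for a dimmer one. Stat2 and Irf9, which join in the factor that binds the ISRE, averaged 918.8 ± 305 and 1295 ± 202, against 820.8 ± 60.7 and 1610 ± 315, with differences of 0.11 ± 0.27 and -0.31 ± 0.23. Irf1 was nearly constant, at 2830 ± 90.0 against 2990 ± 68.1 (-0.08 ± 0.16). Irf7, the factor that amplifies type I interferon, was near background, at 122.5, 233.2 and 154.1 against 426.4, 17.5 and 76.2, with 1 array of each genotype above it, and it averaged 169.9 in klotho-deficient roots against 173.4 in wild type. The fitted difference of 0.98 ± 1.11 rests on the wild-type value of 17.5, and was -0.14 without that array and 0.26 with an offset of 100.

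Among the GTPases induced by interferon gamma, the members Gbp2, Gbp3 and Igtp had negative differences without separating the genotypes. GTPases outside the 33 went both ways, with Iigp1 at 0.97, Gbp7 at 0.29, Ifi47 at 0.17 and Irgm1 at 0.15, against Irgm2 at -0.40 and Gbp6 at -0.31. Gbp2 measured 2335.0, 2925.6 and 2163.3 in klotho-deficient roots and 3363.0, 2777.8 and 4172.5 in wild type, 0.724-fold (-0.47 ± 0.23, 95% interval -1.03 to 0.10). Its second probe set gave -0.39. Igtp, an immunity-related GTPase, averaged 2069 ± 165 against 2474 ± 487 (-0.24 ± 0.22), and Gbp3 2118 ± 430 against 2201 ± 305 (-0.07 ± 0.22, with a range of -0.22 to 0.06 when 1 array was left out).

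Values of 4 further effectors overlapped as well. Ifit2 averaged 3830 ± 970 in klotho-deficient roots, against 2891 ± 857 in wild-type roots (0.42 ± 0.32), and Oasl2, a relative of the oligoadenylate synthetases, 1534 ± 327 against 1786 ± 806. Bst2, the tetherin that holds back budding viruses, averaged 1165 ± 189 against 1446 ± 697, with 2231.7 on wild-type replicate 3. Ifi35 averaged 12380 ± 973 against 15440 ± 3800, but its other probe sets were far dimmer, from 764.4 to 1553.8, and the bright one carries the suffix _s_at, which marks probes shared by related transcripts.

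As a list, the interferon members had a median difference of -0.07, with 8 higher and 9 lower. It was -0.19 without klotho-deficient replicate 2 and 0.05 without wild-type replicate 3.

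Over the 64 probe sets of the 31 genes, 15 genes had more than 1. Of the 33 probe sets not used above, 27 exceeded background on some array, and 22 of those had the same sign as the one used and 5 the opposite sign.

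Other genes of the pathway were read from a list of receptors, ligands, sensors, regulators, loading factors and interferon-induced genes, of which 73 were measured. In limma 0 of the 73 passed over all genes and 5 had an unadjusted p under 0.05, which 6.41% of all genes had. The genotypes did not overlap in 13 (17.8%), 5 higher and 8 lower, beside 6.63% and 6.84% of all 18193 genes (13.5% together).

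Among receptors and kinases, Ifngr2, a chain of the interferon gamma receptor, measured 2126.2, 1773.9 and 2298.8 in klotho-deficient roots against 3157.5, 3094.4 and 3948.3 in wild type (-0.72 ± 0.20, adjusted p = 0.67). The other chain, Ifngr1, overlapped between genotypes (-0.10). Jak2, a kinase of that receptor, measured 5235.3, 4907.8 and 5145.8 against 4855.7, 4204.0 and 3043.3 (0.36). Among sensors and regulators, Tlr3, a receptor for double-stranded RNA, and Rfx5, a factor that binds class II promoters, were higher without overlap at 0.46 and 0.25.

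Among induced genes, Iigp1, an immunity-related GTPase, measured 3135.9, 6786.1 and 3236.4 against 2788.1, 2110.1 and 1541.9 (0.97). Cxcl9, a chemokine induced by interferon gamma, measured 133.4, 181.3 and 208.2 against 124.9, 89.6 and 127.4, higher without overlap. It was below background in wild type and on klotho-deficient replicate 1, so no fold is given. Ly6e, Isg20, Ifi27 and Irgm2 were lower without overlap, at -0.59, -0.60, -0.45 and -0.40, and all 4 were highest on wild-type replicate 3. The chaperones Pdia3 and Calr, which fold class I heavy chains, were lower at -0.33 each. None of these passed in limma over all genes.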

How the data were processed

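The submitters deposited 1 linear array intensity per probe set for 45101 probe sets on 6 Affymetrix arrays, per the file's values. RMA is named in the submitters' processing notes without a version, and how it gave a linear scale is not stated. Trimmed by 2% at both ends, every array had a mean of 1500.01, so the deposited intensities share a common scale. RNA was extracted with Trizol and amplified with a NuGEN kit, per the labels' protocols.

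Intensities were log2-transformed with no pseudocount. The annotation gave 1 gene to 34945 probe sets, and the brightest probe set by mean log2 stood for each of 18193 genes. The genotype test was limma's moderated one (version 3.58.1, R version 4.3.3; lmFit, then eBayes; 4 residual and 2.1 prior degrees of freedom), two-sided, with Benjamini-Hochberg adjustment across all genes and a threshold of 0.05; every adjusted p is from it, or for single probe sets from the same fit over all probe sets other than controls. Its fitted differences were checked on simulated data, which does not show that it could call changes of the size seen here. Signals are mean ± SD over 3 arrays and differences are ± SE.

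Per-array values were given for class II genes, H2-K1, H2-D1, B2m and the 3 interferon genes of largest difference above background. Other pathway genes were named where the genotypes did not overlap, up to 12. The members and lists were chosen with earlier results of these data known. Alternatives are given in the closing section. Figures were drawn with matplotlib 3.10.9.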

Additional observations from a re-analysis of the deposited data

Results flagged for a closer look

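Probe sets not used above, 1 of H2-DMa and 1 of H2-D1, were higher on every klotho-deficient array than on any wild-type array. The one for H2-DMa measured 254.7, 303.9 and 336.4 in klotho-deficient roots and 232.8, 251.6 and 186.2 in wild type, a difference of 0.42 ± 0.23 (limma adjusted p = 0.943 over all probe sets). The H2-DMa probe set used gave 0.38 with overlap. The one for H2-D1 measured 158.8, 448.2 and 281.8 against 109.4, 135.2 and 110.9, below background in wild type (a fitted 1.20 on the log2 scale, which is no measured fold there, adjusted p = 0.875). The H2-D1 probe set used gave -0.20. Both carry the suffix _x_at, which marks probes shared between genes.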

How the results depend on the processing

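The 31 genes gave 0 calls in limma under the main setting and all 15 alternatives, and so did the 73 other pathway genes; the smallest adjusted p of any of the 31 under an alternative was 0.639. Over all genes the count was 0 in the main fit and 0 with the replicate block, quantile normalization, median centring, the mean of all probe sets or the covariate for arrays without Y-linked transcripts. It was 1 for genes above background only, 1 with an offset of 100 and 2 with a trended robust prior, and 0 to 1 with each array left out. The class II median was -0.36 with the covariate, a move larger than the spread of the list's mean level between pools of 1 genotype (SD 0.42); no other list median moved by more than its own such spread. With each array left out the medians ran from -0.01 to 0.39 for class II, -0.30 to -0.10 for class I and -0.19 to 0.06 for interferon genes.

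Of 463 differences of single genes under alternatives, 409 kept their sign and 54 turned, in 21 of the 31 genes, and none of them was called before or after. With the covariate the sign turned for H2-Aa (-0.39), H2-Ab1 (-0.11), H2-Eb1 (-0.58), H2-DMa (-0.33), Ciita (-0.20), H2-D1 (0.01), Tap2 (0.10), Stat2 (-0.28), Ifit1 (-1.20), Ifit3 (-0.64), Rsad2 (-0.63), Usp18 (-0.65) and Ifih1 (-0.77). With the mean of all probe sets it turned for Ciita (-0.18) and Psmb8 (0.44), and Tap1 was 0.76 against 0.08 in the main fit. That mean includes a Tap1 probe set under background on all arrays, at 35.7, 26.5 and 39.4 in klotho-deficient roots against 14.0, 11.0 and 5.6. With klotho-deficient replicate 2 and wild-type replicate 3 both left out, a setting chosen after seeing the data, it turned for Cd74 (0.24), Ciita (-0.20), H2-D1 (0.17), Tap2 (0.48), Psmb8 (0.01), Stat2 (-0.20), Ifit1 (-0.56), Ifit2 (-0.03), Ifit3 (-0.15), Rsad2 (-0.40), Oasl2 (0.05), Ifih1 (-0.27) and Bst2 (0.27). With each array left out in turn, differences ran from -0.05 to 0.43 for H2-Aa, from -0.05 to 0.64 for H2-Ab1, from -0.20 to 0.40 for H2-Eb1, from -0.38 to 0.24 for Cd74, from -0.17 to 0.33 for Ciita, from -0.40 to 0.03 for H2-D1, from -0.09 to 0.24 for Tap1, from -0.72 to 0.34 for Tap2, from -0.57 to 0.03 for Psmb8, from -0.14 to 0.31 for Stat2, from -0.14 to 2.17 for Irf7, from -0.35 to 1.37 for Ifit1, from -0.19 to 0.69 for Ifit3, from -0.19 to 1.54 for Rsad2, from -0.38 to 0.19 for Oasl2, from -0.17 to 0.50 for Ifih1, from -0.50 to 0.15 for Bst2 and from -0.22 to 0.06 for Gbp3. Deviations from the genotype means correlated at 0.17, -0.01 and 0.16 between pools of equal replicate number 1, 2 and 3, over 13322 genes. Between pools of unequal number they correlated at -0.20 to 0.07. The labels tie no pools by replicate number, and whether pools of equal number share an effect was not tested. The replicate block left every difference as it was, as the design is balanced, and gave 0 calls; the causes of the turns were not tested.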
